A study of Mus musculus with 2 samples.

Results

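The 4x44K mouse expression array carries, beside its probes for named genes, 4598 probes whose gene field holds no gene name and whose system identifier is no RefSeq entry. Their gene field repeats the probe's own name or an accession, or starts with ENSMUST, TC or NAP. Of these, 2106 were selected on the scanner software's flag for signals well above background, which had to be set on both arrays in at least 1 of the 2 RNA pools. They are called unnamed probes here, and they stand among 22201 measured probes of 39424 that are no control. Because that flag chose the members, their being detected is a description and not a result.

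The 2 pools were hybridised together on each of 2 arrays with the dyes exchanged. For the colon pool, CX3CR1high CD11b+ CD11c+ cells were taken from large-intestinal lamina propria. The donors were CX3CR1gfp/+ mice, which carry a GFP reporter in place of 1 copy of Cx3cr1. The blood pool was total RNA of Ly6c+ CD11b+ monocytes from C57BL/6J mice. Both were pooled and labelled from 25 ng, and the series states n = 10 (colon) and n = 6 (blood) without saying what n counts. The labels name the same 2 pools on both arrays, so they were counted as 1 replicate, no test between the pools was made, and every SD below is over the 2 arrays and holds technical error alone. Cell type, organ, mouse line and isolation differed together between the pools and cannot be told apart. Tissue dissociation and sorting can also carry RNA of other cells into a pool, and in bulk RNA more cells of a type and more RNA per cell give the same signal.

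A probe without a gene name can be one whose transcript was predicted or cloned before the gene was named, or one that belongs to a gene segment. Antibody genes are the main example of such segments here. B cells build each antibody chain by joining a variable (V) segment to joining and constant (C) segments of the heavy, kappa or lambda locus, and the antibody-secreting plasma cells that descend from them are numerous in the intestinal lamina propria. T cell receptors are built in the same way.

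By the descriptions in the scanner files, 118 of the 2106 unnamed probes were for immunoglobulin segments or other antibody transcripts and 7 for T cell receptor segments. A further 648 carried the description of a protein, 329 an uncharacterized protein, 61 a cDNA or EST entry, and 943 no description at all. Of the 4598 probes, 86.1% of those for immunoglobulin were measured, against 27.4% of those for uncharacterized proteins and 15.9% of those for T cell receptor segments.

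The probes of V segments are the ones most of the larger ratios came from, and their 60-base sequences, taken from the scanner files and written 5′ to 3′, show how close some of them are to each other. The first 4 are of the kappa V4 family, in which IGKV4-71 had the highest ratio, while for IGKV4-81 the blood signal was not well above background and the ratio is a bound. Capitals mark the 39 bases that IGKV4-73 and IGKV4-57-1 have in common.
IGKV4-71, chr6:69193231-69193290 (mm9, minus strand): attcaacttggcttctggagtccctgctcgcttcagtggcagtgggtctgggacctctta
IGKV4-73, chr6:69147577-69147636 (mm9, minus strand): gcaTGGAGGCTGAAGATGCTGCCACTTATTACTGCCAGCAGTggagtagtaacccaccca
IGKV4-57-1, chr6:69494355-69494414 (mm9, minus strand): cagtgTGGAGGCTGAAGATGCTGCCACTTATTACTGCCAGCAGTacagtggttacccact
IGKV4-81, chr6:68940856-68940915 (mm9, minus strand): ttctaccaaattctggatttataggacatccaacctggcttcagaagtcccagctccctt
The next 2 are heavy V segments, IGHV1S6 with the highest ratio and IGHV4-1, which was close to background in both pools.
IGHV1S6, chr12:116383750-116383809 (mm9, minus strand): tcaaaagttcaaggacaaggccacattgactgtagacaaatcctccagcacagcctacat
IGHV4-1, chr12:115186605-115186664 (mm9, minus strand): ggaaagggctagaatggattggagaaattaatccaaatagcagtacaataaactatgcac
The last 2 are examples, 1 in each direction, of called probes that had no description and shared no run of 20 bases with any named probe.
A_55_P1998797, higher in colon, chr7:48746862-48746921 (mm9, plus strand): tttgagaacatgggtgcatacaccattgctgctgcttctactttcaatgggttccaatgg
A_55_P2118537, higher in blood, chr13:101110254-101110313 (mm9, minus strand): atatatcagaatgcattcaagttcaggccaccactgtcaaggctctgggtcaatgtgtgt

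Ratios are given as log2 of colon over blood, and a probe was called higher or lower when it was at least 2-fold different in the same direction on both arrays. By that rule 209 unnamed probes (9.92% of 2106) were higher in colon and 47 (2.23%) were higher in blood, that is lower in colon. Over all measured probes the shares were 12.7% higher and 4.04% lower, above those of the unnamed probes in both directions. Their median log2 ratio was -0.04 beside 0.04 for named probes. Higher calls made up 81.6% of the called unnamed probes, but with the scanner software's own ratios 273 were higher and 262 lower, a share of 51.0%. Across the 2106 probes the ratios of the 2 arrays had a Pearson correlation of 0.96 and a Spearman correlation of 0.84, values that share pools and labelling. The median SD was 0.11.

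Receptor segments supplied a large share of the higher calls. Immunoglobulin probes made up 48.3% of the 209 higher calls, with 101 of their 118 higher, none lower and a median log2 ratio of 2.66. Of the 118, 67 were selected through the colon pool alone and could hardly be lower there, so these counts describe the selection as well. Among the 51 that were well above background in both pools, 50 were higher and the median was 3.82. Of the 1981 unnamed probes that were no receptor segment, 106 (5.35%) were higher and 47 (2.37%) were lower, around a median of -0.06. The classes by identifier differed too, and most of the receptor segment probes are in the class named by an Ensembl transcript. Among 1100 probes named by an Ensembl transcript, 157 were higher and 28 lower. Among 383 named by a NAP identifier the counts were 13 and 4, and among 530 with only the probe's own name 28 and 13.

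**Figure D1:**
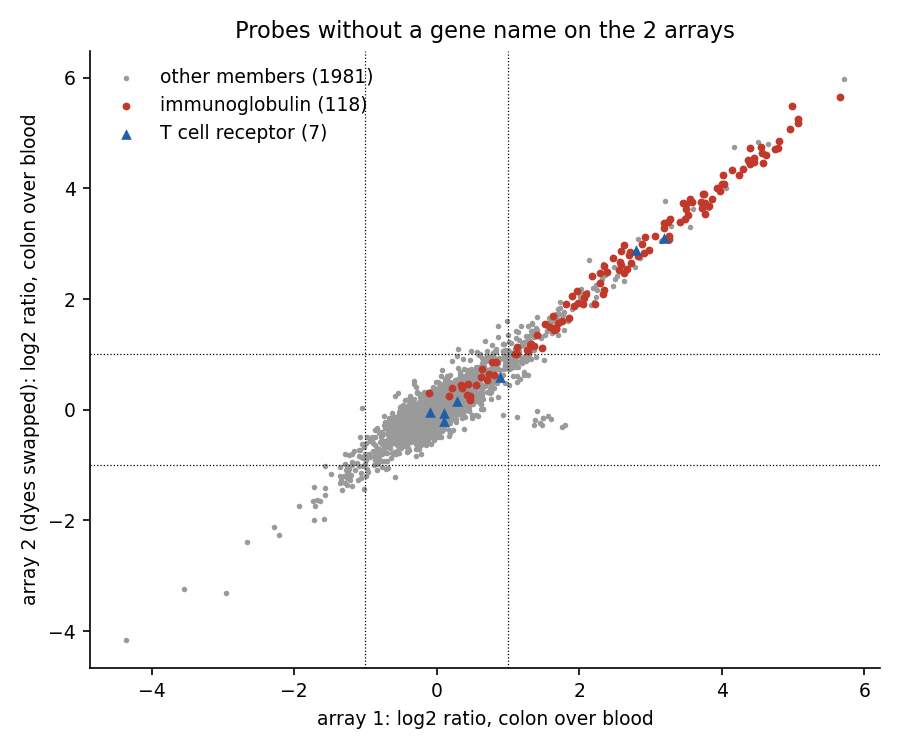
Log2 ratio of colon over blood of the 2106 unnamed probes on array 1 (horizontal) and on the dye-swapped array 2 (vertical), with 118 immunoglobulin probes in red, 7 T cell receptor probes as blue triangles and the other 1981 in grey, and dotted lines at 2-fold. Most points lie along the diagonal, the immunoglobulin probes reach from near 0 to 5.66, and a small separate group at about 1.5 on array 1 lies near 0 on array 2.

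The constant segments, which are common to all antibodies of a class, gave the largest immunoglobulin ratios for the lambda light chain and differed among the heavy chain classes. The 4 lambda C probes had log2 ratios from 4.41 to 5.66. IGLC1, at chr16:19061905-19061964 (mm9, minus strand), had a normalized log2 signal of 13.96 and 13.99 in colon and 8.29 and 8.34 in blood on the 2 arrays, a ratio of 5.66 ± 0.01 or 50.5-fold. IGLC2 followed with 5.06 and 5.19, and the 2 IGLC3 probes with 4.79 and 4.73 and with 4.39 and 4.43. For each of the 4 lambda probes both colon values lay above both blood values.

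Of the 5 heavy C probes, 3 were higher in colon. IGHG2C, a class of IgG, had ratios of 3.98 and 3.95 on the 2 arrays, and IGHG1 had 3.75 and 3.90. IGHD, the segment of IgD that naive B cells carry, had 1.70 and 1.58. IGHM, the segment of IgM at chr12:114659630-114659689 (mm9, minus strand), stood at 10.79 and 10.75 in colon and at a mean of 10.41 in blood, with ratios of 0.47 and 0.25. IGHM and IGHG3, at 0.63 and 0.60, did not reach 2-fold on either array, and for IGHG3 the blood signal was not well above background, so that it was at least 1.53-fold higher in colon. No probe described as a heavy C segment of the IgA class was among these 5. Brighter named probes of the heavy chain locus are given below.

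The remaining antibody entries were 5 measured probes not described as a single segment, and all 5 were higher in colon. The probe of BC019425 stood at 14.47 and 14.65 in colon and 10.76 and 10.91 in blood, with ratios of 3.71 and 3.75. It lies 1258 bases from a named probe, XM_001472091, at means of 17.67 in colon and 12.45 in blood (5.22 ± 0.26). A probe named XM_001474025, at chr12:114496985-114497044 (mm9), stood at 18.39 and 13.07 (5.32 ± 0.44). Another probe of that name had 0.44 ± 0.11. Which antibody class these probes read was not determined. BC019489, described as an IgG2a transcript, had 4.39 and 4.45, and AF045501 had 5.07 and 5.26. The BC019489 probe, at chr12:114525496-114525555 (mm9), lies beside the IGHG2C probe at chr12:114525600-114525659. A single RNA could bind both, so they are not separate evidence. The probe of BC103785 was not well above background in blood and was at least 9.72-fold higher in colon. A named probe of the antibody J chain gene Igj, which links antibodies into the polymers secreted by plasma cells, had ratios of 5.34 and 5.02.

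Light chain V segments were higher nearly throughout. Of 70 kappa V probes 64 were measured. In colon 55 of these were higher and none was lower, around a median log2 ratio of 2.67 (0.32 to 5.02). Of the 64, 36 entered through the colon flag alone, and the 28 detected in both pools were all higher, from 2.60 to 5.02. All 16 measured probes of the IGKV4 family were higher, with a median of 3.67 and a range of 1.05 to 5.02. IGKV4-71, shown above, stood at 12.97 and 12.94 in colon and at 8.02 and 7.86 in blood, with ratios of 4.95 and 5.08. IGKV4-73 had 4.80 and 4.86, and IGKV4-57-1, which shares 39 bases with it, had 4.74 and 4.70. A single RNA could bind both of these probes, so they are not separate evidence of both segments. IGKV4-81 was not well above background in blood and was at least 2.07-fold higher in colon. The same held of IGKV1-131, at least 1.22-fold higher, and IGKV1-99, at least 1.27-fold. All 3 IGKV14 probes were such bounds, of at least 1.61-fold to at least 2.38-fold. Both measured lambda V probes were higher, at 1.66 and 3.83.

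Heavy chain V segments covered about the same range. Of 50 probes 38 were measured. Of these 32 were higher and none was lower, around a median of 2.41 (0.09 to 5.23). Of the 38, 26 entered through the colon flag alone, and the 12 detected in both pools were all higher, from 2.69 to 5.23. In the IGHV1 family 15 of 16 measured probes were higher, with a median of 3.24. IGHV1S6 stood at 11.74 and 11.69 in colon and 6.76 and 6.20 in blood, with ratios of 4.98 and 5.49. IGHV1-39 had 4.40 and 4.74. The 2 probes of IGHV5-17 differed, one at 4.58 and 4.45 and the other at 2.10 and 2.09. IGHV4-1 stood at 6.25 and 6.40 in colon with blood not well above background. Its ratios of -0.11 and 0.30 had opposite signs, so the mean of 1.07-fold gives no direction. IGHV7-1 and IGHV7-4 had bounds of at least 1.23-fold and at least 1.16-fold.

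Blood signal set the limit of many V ratios. Over kappa, lambda and heavy V together 89 of 104 measured probes were higher, and for 53 the blood pool was not well above background on either array, so that these have only a bound on their fold. The 36 V probes that share 20 or more bases with another segment probe had a median of 2.98, with 33 higher. The 68 that share none had a median of 2.25, with 56 higher.

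**Figure D2:**
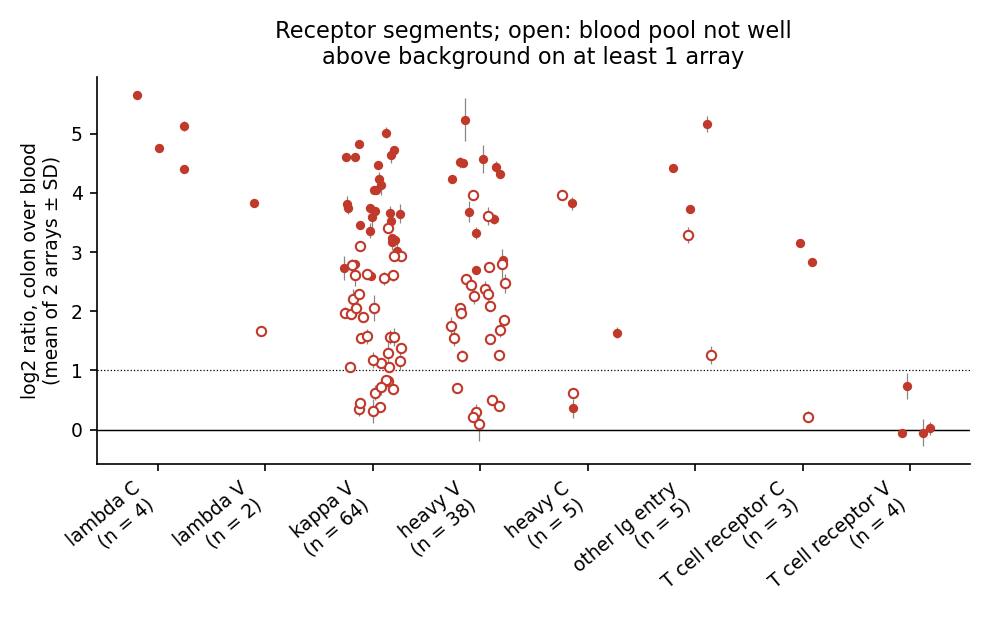
Log2 ratio of colon over blood (mean of 2 arrays ± SD) of the measured receptor segment probes by chain, with open circles where the blood pool was not well above background on at least 1 array and a dotted line at 2-fold. All lambda C probes lie above 4, kappa and heavy V probes spread from near 0 to about 5, and T cell receptor V probes lie below the 2-fold line.

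T cell receptor probes were mostly undetected. Of 44 probes 7 were measured, and 2 of these were higher, both of the constant part of the beta chain. TRBC1 stood at 10.31 and 10.03 in colon and 7.12 and 6.92 in blood, a ratio of 3.15 ± 0.06. TRBC2 had 2.79 and 2.88. The gamma segment TRGC1 had 0.29 and 0.15, and the V segment with the highest ratio, TRBV13-1, had 0.89 and 0.59. The probes of the alpha and delta constant segments, TRAC and TRDC, were not measured in either pool.

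Marker genes of lymphocytes moved with these segments. Of a list of 14 B and plasma cell genes 9 were measured and 7 were higher in colon, with a median log2 ratio of 1.78 (-0.03 to 2.85). They included Pou2af1 (2.85), Tnfrsf17 (2.38), Sdc1 (1.92) and Ms4a1 (1.78). Xbp1, which plasma cells use at a high level but other cells use too, had -0.03, and Pax5 and Blk were not measured. The summed normalized signal of the 11 genes with a probe was 27574 to 28239 in colon and 23440 to 25465 in blood over the 2 arrays. Xbp1 made up most of both sums, and the other 10 genes came to 5686 to 5932 in colon and 1792 to 1935 in blood. Of 14 T cell genes 13 were measured and 10 were higher, with a median of 2.08. The summed signal of the 14 was 11342 to 12682 in colon and 2535 to 3079 in blood. The brightest of them in colon were Cd4, at a log2 signal of 11.85 and 11.86, and Thy1, at 11.02 and 10.76. Thy1 is also in the list of fibroblast genes used below, so this sum is not of T cell RNA alone. The part of lymphocyte RNA in the segment ratios was not tested.

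Lists of named genes describe the pools. The labelled cell types had their markers, with 19 of 21 measured macrophage genes higher in colon (median 4.51) and 16 of 16 monocyte genes lower (median -3.36). Of the genes used in the sort, Itgax (CD11c) had 3.35, Ly6c1 -3.28, Itgam (CD11b) -0.46 and Cx3cr1 0.10. All 15 measured fibroblast genes were higher (median 5.08), with a summed signal of 208070 to 236811 in colon and 5011 to 5728 in blood, and so were 12 of 14 epithelial genes (median 1.70). Of 18 immediate early and heat shock genes 10 were higher and none lower (median 1.55), and of 10 endothelial genes 3 were higher. In the other direction 4 of 11 neutrophil genes and 4 of 11 platelet and erythroid genes were lower in colon, with 1 of the latter higher. The lists overlap. The lower neutrophil genes S100a8 and S100a9 are also in the monocyte list, and the higher platelet gene, Pf4 (5.53), is also in the macrophage list.

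Outside the receptor segments, 40 of 648 probes with a protein description were higher and 15 lower. The highest was the probe of transcript ENSMUST00000111314, described as ADAMTS-4, a secreted protease that cuts proteoglycans of the extracellular matrix. It stood at 12.74 and 12.65 in colon and 7.02 and 6.67 in blood, with ratios of 5.71 and 5.98. A named Adamts4 probe 757 bases away had 3.87 ± 0.10, with a blood signal of 6.07, close to background. TC1733495, described by similarity to amylase, the starch-splitting enzyme, had 4.65 and 4.80. The probe described as PIP5K1A, a kinase that makes the membrane lipid PIP2, had 4.05 and 4.00, while the named Pip5k1a probe 26379 bases away had 0.24 ± 0.01.

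The probe described as the alpha 3 chain of collagen VI, at chr1:92663663-92663722 (mm9), had 4.17 and 4.75. Its blood signal was not well above background, and the bound on its log2 ratio was 4.46. The probe of the alpha 2 chain, at 1.29 and 1.18, was at least 2.35-fold higher, and the named Col6a2 probe 1649 bases away had 3.84 ± 0.07. A probe described as fibulin-1, a basement membrane protein, had 2.80 ± 0.08, and the nearest named Fbln1 probe, 33623 bases away, had 2.36. Another named Fbln1 probe, the one in the fibroblast list, had 5.05 and 5.42. One described as BMP-1, which trims procollagens, had 1.55 ± 0.14 and one as TFPI, an inhibitor of coagulation, 1.56 ± 0.02. These 5 were picked after their values were seen. The fibroblast list above was higher in the same pool, and the part of fibroblast RNA in them was not tested.

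Further described proteins that were higher in colon, chosen after their values were seen, follow with their named neighbours. The probe described as CXCL10, a chemokine induced by interferon, had 2.78 and 2.58, against 4.69 ± 0.44 for the named Cxcl10 probe 835 bases away. Gelsolin, which severs actin filaments, had 3.29 and 3.33, and the named Gsn probe 16 bases away had 3.35. TRIM47 had 3.23 and 3.07, and the named Trim47 probe had 3.30. Metallothionein-1, which binds zinc and copper, had 1.90 and 1.82, against 3.74 ± 0.39 for Mt1. A probe described as dipeptidyl-peptidase 1 (cathepsin C), a lysosomal protease, had 2.43 ± 0.40, and the named Ctsc probe 23008 bases away had 1.24.

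Lower calls were fewer and most were small. The lowest described protein was SIRP beta 1, a receptor of myeloid cells, whose probe stood at 10.71 and 10.54 in colon and 13.66 and 13.85 in blood, with ratios of -2.95 and -3.30. The nearest named probe, 739 bases away and named LOC641195, had -0.44 ± 0.07. It was close to background, at 6.11 in colon and 6.55 in blood, which limits the ratio it can show. MS4A4B had -2.67 and -2.39 beside -2.07 for the named Ms4a4b probe. BCL11A, a transcription factor of early B cells and of dendritic cell development, had -2.21 and -2.27 beside -2.79 for the named probe. Ikaros, another lymphoid transcription factor, had -1.69 ± 0.07 beside -0.94 for Ikzf1. RNF213 had -1.59 and -1.97, SAMHD1, which breaks down nucleotides needed by retroviruses, had -1.29 ± 0.14 beside -2.27 for Samhd1, and TNFRSF13B (TACI) had -1.20 ± 0.23 beside -0.53 for the named probe.

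**Figure D3:**
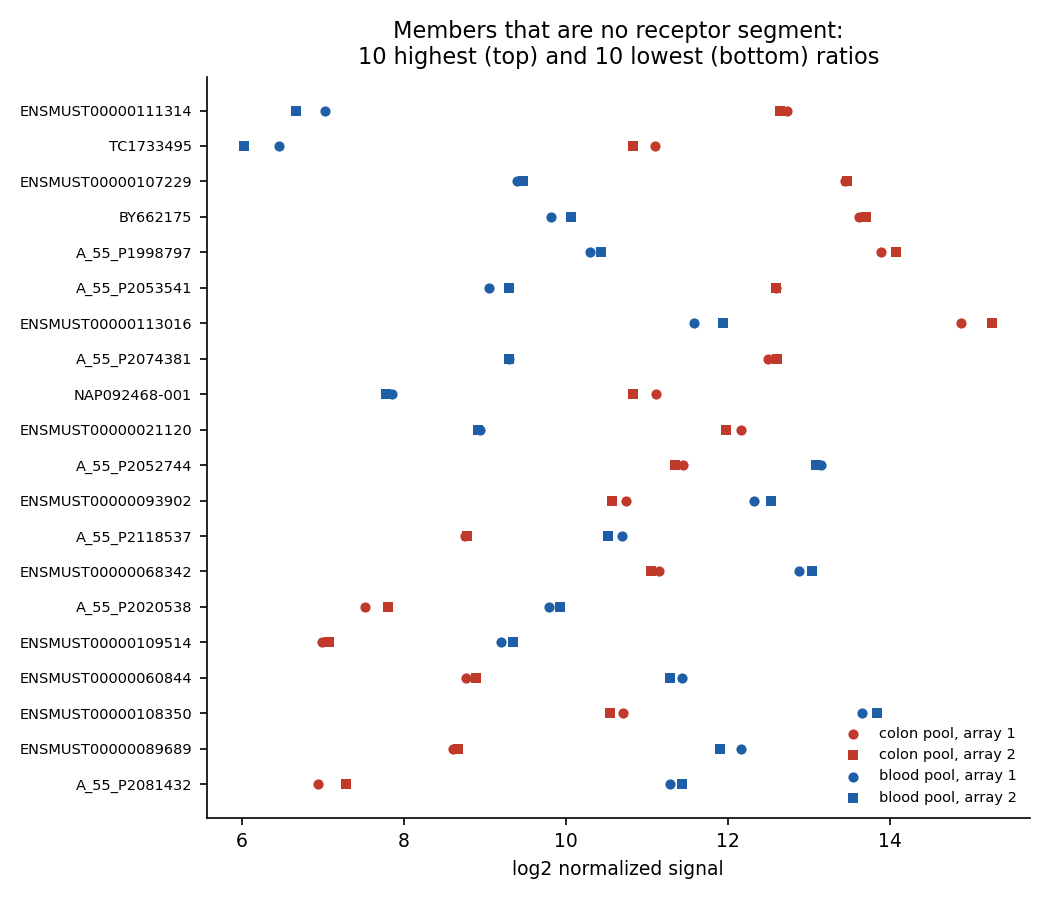
Normalized log2 signal in each pool on each array for the 10 unnamed probes with the highest and the 10 with the lowest log2 ratio among those that are no receptor segment and were well above background in both pools (colon red, blood blue, array 1 circles, array 2 squares). In each probe the colon and blood values do not overlap, which largely follows from choosing the probes by ratio. The 2 arrays of a pool lie close together.

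Uncharacterized transcripts held some of the largest bounds. The transcript ENSMUST00000098351, at chr8:123611944-123612003 (mm9), stood at 10.73 and 10.42 in colon, while in blood it was not well above background on either array, and it was at least 25.4-fold higher in colon. It lies 1263 bases from a named probe of Foxf1a, a transcription factor of gut mesenchyme, which had 0.63 ± 0.01. That named probe was dim, at 6.64 in colon and 6.01 in blood. The EST CB248850 on chromosome X had 3.21 and 3.78 and was at least 11.1-fold higher. Its 60 bases lie, as the reverse complement, in the RefSeq window around the start of Cdr1, so the probe reads the other strand. In all, 124 unnamed probes had a blood signal not well above background on either array, and 56 of these were immunoglobulin probes. All 124 were selected through the colon pool alone and could hardly be lower there, and 53 were at least 2-fold higher. Another 59, selected through the blood pool alone, had a colon signal not well above background. Of these 59, 2 were at least 2-fold lower.

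Those last 2 were ENSMUST00000063354, at least 2.48-fold lower in colon, and ENSMUST00000077110, at least 2.33-fold lower. The first lies 41653 bases from Ccl4, a chemokine gene with a ratio of 6.44 ± 0.02. The second shares a run of 26 bases, AATTACTTCATTAAGATGGATGTAGG, with the named probe of Stfa2l1, a stefin-like protease inhibitor gene, which had -1.95 ± 0.12.

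Among the 943 probes with no description 42 were higher and 19 lower. A_55_P1998797, printed above, stood at 13.90 and 14.07 in colon and 10.30 and 10.44 in blood, with ratios of 3.60 and 3.63. A_55_P2074381 had 3.19 and 3.31, and NAP092468-001 had 3.26 and 3.05. In each, both colon values lay above both blood values, but these probes were picked for their large ratios. In the other direction A_55_P2118537, printed above, had -1.93 and -1.73, and A_55_P2052744 had -1.71 and -1.73. The lowest ratio of all unnamed probes was that of A_55_P2081432, at chr5:12354707-12354766 (mm9), which stood at 6.93 and 7.28 in colon and 11.29 and 11.44 in blood, with ratios of -4.35 and -4.16.

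Many unnamed probes share sequence with a named gene's probe. A run of at least 20 identical bases on the same strand linked 408 of the 2106 to a named probe, 372 of them no receptor segment, and 314 of those 372 lay on another chromosome or had no position. Among the undescribed probes 304 of 943 shared such a run. Ratios of the paired probes were close. For the 366 pairs outside the segments in which both were measured, the median absolute difference of the log2 ratios was 0.04, 318 pairs differed by under 0.2, and 92.3% had the same sign. Across these pairs, which share arrays and sequence, the Pearson correlation was 0.89. In 1143 pairs of named probes of different genes that share such a run, 89.1% had the same sign and the median difference was 0.06.

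The length of the run went with likeness. All 39 measured pairs with a run of 40 to 59 bases had the same sign, against 95.3% of 85 with 30 to 39 and 90.1% of 242 with 20 to 29. In 32 measured pairs with the run on opposite strands, 25 had the same sign and the median difference was 0.54. Which transcript gave the signal of a shared run cannot be told apart from these arrays.

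Among the called pairs, the EST probe BY662175, placed on chromosome 1, had 3.80 and 3.65, and the probe of Odc1, the first enzyme of polyamine synthesis, with which it shares 34 bases, had 3.79 ± 0.18. A_55_P2053541 on chromosome 12 had 3.55 and 3.30, and its 26-base run, AATTGGAATGTCTGTACTCTGCTCCT, is also in the probe of Hmgn1, a nucleosome-binding protein, at 3.38 ± 0.12. NAP114472-1 had 1.77 ± 0.01 and its 50-base partner Fabp5, a fatty acid carrier, 1.77 ± 0.06. On the low side the uncharacterized ENSMUST00000019416 had -1.66 ± 0.03 and the paired immunoglobulin-like receptor gene Pira11, sharing 32 bases, -1.67 ± 0.07. The 37 unnamed probes whose partner was a ribosomal protein gene ranged from -0.36 to 0.33 with a median of -0.11, and none was called.

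A few pairs parted. ENSMUST00000089689, at chr15:75066100-75066159 (mm9, minus strand), shares the 28 bases CTGTTGCAAGGAAGACCTCTGCAATGCA with the probe of Ly6g, a surface antigen of granulocytes from the family that also holds Ly6c. It stood at 8.61 and 8.66 in colon and 12.16 and 11.91 in blood, with ratios of -3.55 and -3.24, while Ly6g had 0.11 ± 0.19. The Ly6g probe was dim in both pools, at means of 6.91 in colon and 6.81 in blood, which limits the ratio it can show. The lowest probe, A_55_P2081432, shares 39 bases with LOC625360, which had -3.26 ± 0.07. Of the 106 higher unnamed probes outside the segments 13 shared a run with a named probe, and of the 47 lower ones 6 did. Among the 1828 not called it was 353, a larger share.

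**Figure D4:**
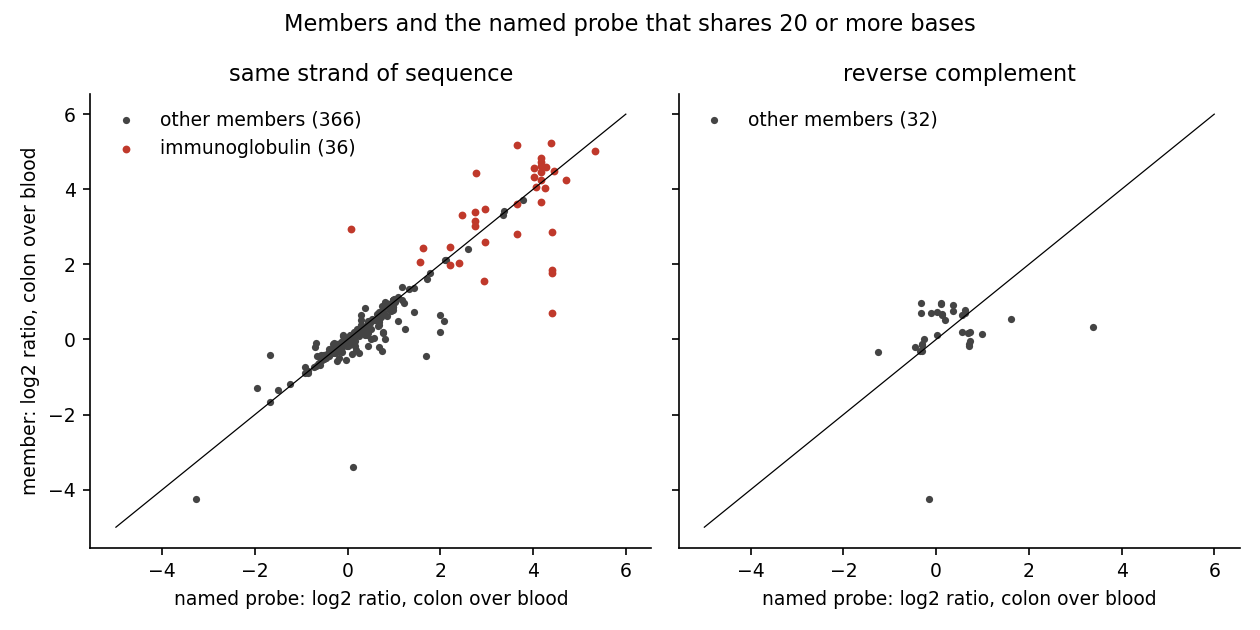
Log2 ratio of each unnamed probe (vertical) against that of the named probe with which it shares 20 or more bases (horizontal), for runs on the same strand and on opposite strands in separate panels, with immunoglobulin probes in red and a line of equal ratios. Same-strand pairs lie along the diagonal (402 measured pairs, 93.0% of the same sign), and the 32 opposite-strand pairs scatter around it.

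By position, 2099 of the unnamed probes were placed on mm9, 978 on the plus and 1121 on the minus strand. A measured named probe lay on the same strand within 50 kb of 1139 and within 5 kb of 395, while 725 had no named probe at all on their strand within 50 kb. Within 1 kb, 79.3% of 164 unnamed probes outside the segments had the same sign as the nearest named probe on their strand, at 1 to 5 kb 70.9% of 227, at 5 to 20 kb 63.7% of 339 and at 20 to 50 kb 60.8% of 342. For named probes against the nearest probe of another gene the shares were 79.8%, 63.8%, 58.1% and 55.3%. Toward a named probe on the opposite strand the share was 62.0% within 1 kb and 52.6% at 20 to 50 kb. These are descriptions, since neighbours share arrays and can share a transcript.

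**Figure D5:**
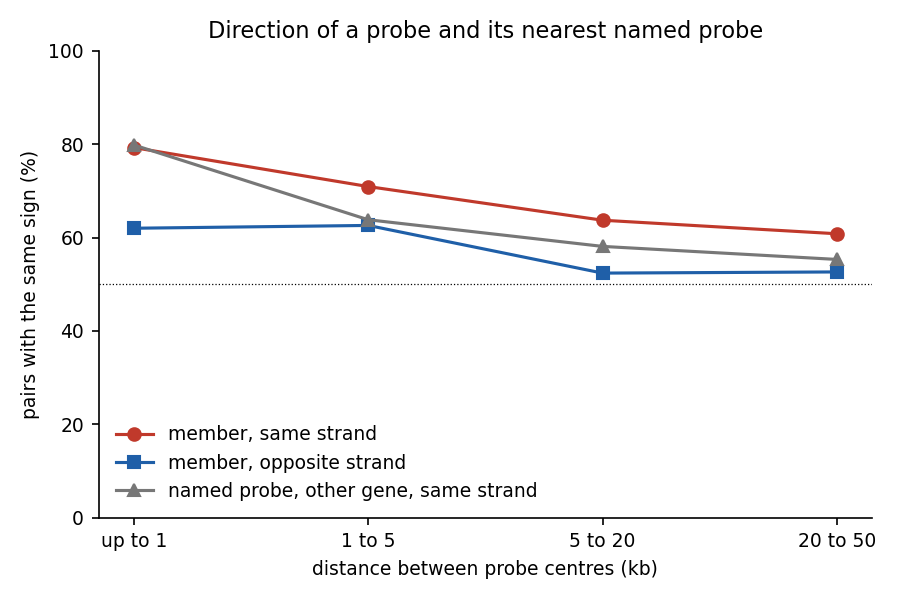
Share of pairs whose log2 ratios had the same sign, by distance between probe centres in kb, for unnamed probes that are no receptor segment against the nearest named probe on the same strand (red) or the opposite strand (blue), and for named probes against the nearest probe of another gene (grey). The red and grey lines start at 79.3% and 79.8% within 1 kb, and all 3 lie between 52.6% and 60.8% at 20 to 50 kb, with a dotted line at 50%.

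Of 47 called unnamed probes with a measured named neighbour on their strand within 5 kb, 31 had a neighbour called in the same direction and 16 one not called, with none in the opposite direction. Within 50 kb 99 of 148 matched and 4 were opposite. Without receptor segments, which lie beside named segment probes, it was 47 of 92 (51.1%), and for named probes beside another gene 23.9%. One of these was BI734812, an EST in the Ms4a gene cluster with 2.95 ± 0.18 in the colon direction, 12280 bases from Ms4a4c at -3.73 ± 0.01. The other 3 were ENSMUST00000063354 beside Ccl4, given above, ENSMUST00000100512 at -1.28 ± 0.11 beside Oplah at 1.92, and A_55_P2125823 at -1.14 ± 0.12 beside Nusap1 at 1.49.

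Some close pairs with the same description also differed. The probe described as H2-M2, a nonclassical MHC class I gene, stood at 12.94 and 12.90 in colon and 12.64 and 12.55 in blood, a ratio of 0.32 ± 0.04, while for the named H2-M2 probe 277 bases away the log2 ratio was larger, the difference (unnamed minus named) being -5.28. ANKRD33B had -0.13 ± 0.20 and its named probe, 425 bases away, 2.42 ± 0.19. PHYHD1 had 0.95 ± 0.46 against 3.71 ± 0.06. Between probes of the same gene name elsewhere on the array the sign was the same in 82.2% of 3675 pairs.

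Unnamed probes also stood in clusters. With gaps of at most 20 kb on a strand, 34 probes fell into 10 loci of 3 or more, 3 of which held immunoglobulin probes. The lambda locus chr16:19061905-19085170 (mm9) held 4, all higher, from 3.83 to 5.66. The largest locus, chr9:3018028-3038316 (mm9, plus strand), held 5 probes from -0.90 to 0.14, none of them called. By chromosome, 63 of 158 unnamed probes on chromosome 6 and 42 of 117 on chromosome 12, which carry the kappa and heavy chain loci, were higher. None of the 158 on chromosome 6 was lower.

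A dinucleotide repeat marked the probes on which the 2 arrays differed most. Of 14 unnamed probes that hold the 10 bases TGTGTGTGTG, 11 had a log2 ratio over 1 higher on array 1 than on array 2, with medians of 1.47 and -0.16. Of the 2079 that hold neither this, its reverse complement, nor a GA or CT repeat of that length, 2 did. Among named probes with the repeat 104 of 133 did, with medians of 1.49 and -0.26. Probes with the reverse complement CACACACACA did not show it, with 0 of 9 unnamed and 0 of 46 named probes over 1. The repeat was in 0.665% of unnamed and 0.662% of named measured probes. None of the 14 was called, because a call needs both arrays, but their mean log2 ratio had a median of 0.64. The strongest, A_55_P2098076, stood at 16.51 and 15.84 in colon and 14.71 and 16.11 in blood, so colon was the brighter pool on array 1 and blood on array 2. Dye and pool change places between the arrays, and the part of the dye in this was not tested.

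Other sequence features differed by class. The polyadenylation signal AATAAA, searched on the probe's own strand, was in 9.31% of the 2106 unnamed probes, 15.0% of named measured probes and 7.95% of the 2492 probes of the same naming that were not measured. It was in 3.39% of the immunoglobulin probes. All 118 immunoglobulin probes had at least 1 reading frame with no stop codon, against 82.5% of all unnamed and 79.0% of named probes. The median GC content was 45.0% in unnamed and 41.7% in named probes. No unnamed probe lay in a RefSeq miRNA hairpin, and 6 lay on the same strand and 15 on the opposite strand within RefSeq windows around gene starts.

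The brightest unnamed probes did not separate the pools. The 6 with the highest signals, A_55_P2020962, A_55_P2090953, A_55_P2161818, BY465839, A_55_P2175381 and BC099450, had log2 ratios from -0.17 to 0.18. At the other end the flag was not a clean cut on the signal. The dimmest probes kept had a normalized log2 signal of 6.18 to 6.22 in the pool and array that decided them, while the brightest of those left out reached 6.40 to 6.45.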

How the data were processed

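The 2 deposited scanner files hold, per the file headers, mean and background-median spot intensities in red and green from Agilent Feature Extraction 10.7.3.1, while the submitters' processing notes name version 10.5.1.1. The deposited log10 ratios are red over green after the software's own background subtraction and dye normalization, per the file headers. The deposited value table equals that ratio on array 1 and its sign-turned value on array 2. Probe positions are on mm9, per the file headers.

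From the intensities, background was corrected with normexp (offset 50) and each array normalized by loess in limma 3.58.1 (R 4.3.3), with control and outlier spots at weight 0. Between 52.9% and 59.6% of 43020 spots per channel were well above background and none was saturated. Spots of a probe were averaged, array 2 was turned to colon over blood, and the mean of both arrays was taken. Where a pool was not well above background on either array, a fold is given as "at least", against the higher of the dim probe's own signal and the lowest well-above-background signal, after scaling channels between arrays (Aquantile). This bound is open to dye bias.

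Nearest named probes were found by probe centres within 50 kb. Strands in the files matched RefSeq (GRCm38.p6, names and strands only) for 99.3% of 19934 named probes. Shared runs are identical stretches of at least 20 bases. Named probes were those with the highest and lowest ratios, the largest bounds, the highest signals, and the most like or unlike neighbours. Others were chosen after their values were seen. Members and gene lists were chosen with earlier results of these data known, so no list is independent support. The pipeline was tested on simulated data. With 1 replicate no p-value is given, and the precision is limited by the 2 arrays.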

Additional observations from a re-analysis of the deposited data

How the results depend on the processing

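The 209 higher and 47 lower calls moved with the fold, the centring and the source of the ratios. At 1.5-fold there were 340 and 120, and at 4-fold 113 and 6. Median centring in place of loess gave 130 higher calls, of which 95 were immunoglobulin or T cell receptor segments. With loess, 103 of the 209 were such segments and 106 were left without them. The scanner software's ratios and the deposited value table each gave 262 lower calls. Single arrays gave 231 and 262 higher and 55 and 66 lower calls. The cause of these differences was not tested.

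The median ratio of the unnamed probes, -0.036, was -0.029 without background correction, -0.048 with an offset of 16, -0.28 with median centring, -0.19 with the software's ratios and with the deposited table, -0.037 for probes above background in both pools and -0.058 without segments. On single arrays it was -0.011 and -0.0099. Median centring moved the median of all measured probes from 0.03 to -0.28 and the software's ratios moved it to -0.16.

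The share with the sign of the nearest named probe, 68.7%, was 73.6% with median centring, 71.6% with the software's ratios and the deposited table, 65.8% and 67.4% on single arrays and 67.2% for probes above background in both pools. It was 71.9% within 10 kb, 63.1% within 200 kb, 65.9% on either strand, 54.5% on the opposite strand and 66.7% without segments. With shared runs of 30 or more bases the same sign was found in 97.1%, against 93.0%. These runs, the limit on segments and the use of the software's ratios for the shared runs were chosen after seeing the data. Of the single-probe ratios under other scalings, 128 moved by less than their SD over the arrays and 317 by more. No value reversed. No paired analysis was possible because no test was made and both arrays hold the same 2 pools.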
